A study of Arabidopsis thaliana with 12 samples.

Results

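The chloroplast genome of Arabidopsis thaliana, a small circular genome inherited apart from the nucleus, encodes core subunits of the photosynthetic complexes and part of the machinery that expresses them. The transcripts described here are those of every chloroplast gene that 1 probe set of the array measures on its own, chosen as all probe sets annotated to 1 gene whose locus tag in the gene table lies on the chloroplast genome. They number 69 probe sets for 69 genes, of 22746 probe sets tested. By the complex their proteins belong to, they fall into photosystem I (5), photosystem II (15), the cytochrome b6f complex (6), ATP synthase (6), the NADH dehydrogenase-like complex NDH (10), Rubisco (1), the large (7) and small (8) ribosomal subunits, the plastid RNA polymerase (4) and 7 other proteins. The gene table lists 78 distinct chloroplast protein-coding symbols. A further 7 genes, all with 2 copies in the table, were read by 8 probe sets that match both copies and were kept apart.

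RNA came from whole seedlings of the Columbia (Col-0) background, grown 14 days in liquid MS (Murashige and Skoog) medium under constant light at 23 °C. There were 4 groups of 3 arrays, titled as biological replicates: chitin receptor mutant given chitooctaose, mutant given water, wild type given chitooctaose, and wild type given water. Chitooctaose, a soluble fragment of the chitin of fungal cell walls, was applied at 1 uM, and seedlings were collected after 30 minutes. The labels say that the mutant carries a mutation in the chitin receptor, and the series title names a LysM receptor-like kinase. They name neither the allele nor whether more than 1 line was used, and since the annotation ties no probe set to CERK1, the receptor gene, its transcript could not check the genotype labels. Where replicates were not separate cultures, the p-values measure only the spread between these samples.

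Chloroplast genes are largely transcribed together from shared promoters into long precursors, which are then cut, spliced and edited. A bacterial-type polymerase, whose core the rpo genes encode, and nucleus-encoded phage-type polymerases share the work, and most photosynthetic complexes combine chloroplast-encoded and nucleus-encoded subunits. Chloroplast transcripts mostly lack the stable poly(A) tails that standard labelling with an oligo(dT) primer relies on, so their signal on an array can depend on the labelling as well as on abundance. In whole seedlings, less green tissue and less chloroplast RNA per cell cannot be told apart.

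All values are deposited intensities or differences of mean log2(intensity + 16). Errors after a difference are standard errors of the limma fit, those of mean intensities are SDs (n = 3), and a probe set was called at an adjusted p under 0.05 over all 22746. Precision is limited by having 3 arrays per group. Mean intensities of the 69 probe sets over the 12 arrays ran from 66.2 for ndhF to 16936 for atpB, a range that also reflects the probes, so levels are compared only within a gene.

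**Figure D1:**
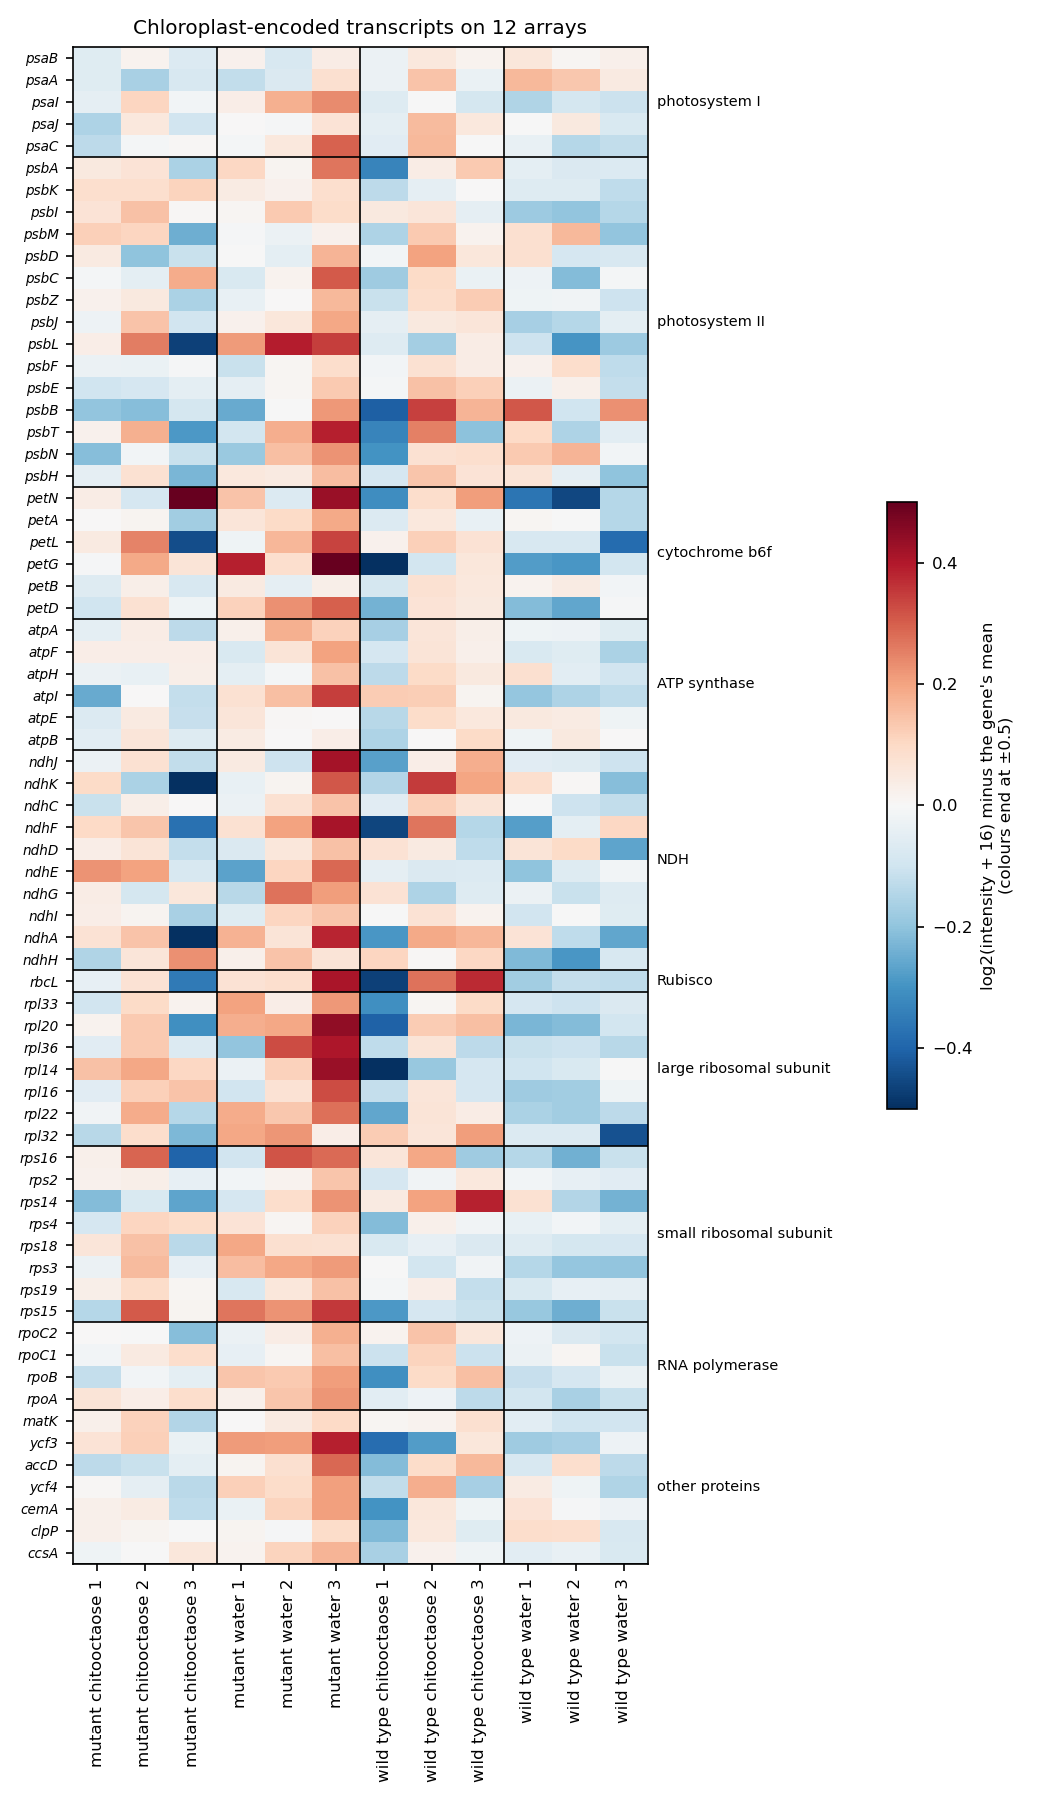
Each row is 1 chloroplast-encoded gene, grouped by complex, and each column 1 of the 12 arrays; colour is log2(intensity + 16) minus the gene's mean over the arrays. Mutant water replicate 3 was the highest of the 12 arrays for 45 of 69 genes, and wild type chitooctaose replicate 1 the lowest for 27.

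For the 69 genes a pair of arrays stood farthest from the others of their groups. The median of the 69 genes' deviations from their own means was 0.20 on mutant water replicate 3, against 0.01 and 0.08 on mutant water replicates 1 and 2. It was -0.11 on wild type chitooctaose replicate 1, against 0.07 and 0.04 on replicates 2 and 3 of that group. Mutant chitooctaose arrays had -0.01, 0.06 and -0.08, and wild type water arrays -0.05, -0.07 and -0.09. Over all probe sets tested the median deviation was 0.05 on mutant water replicate 3 and -0.08 on wild type chitooctaose replicate 1, which also had the lowest median intensity of the 12 (177.5, others up to 200.5) and the highest 3'/5' ratio of the GAPDH control (1.4, against 1.12 to 1.32 on the others). Mutant chitooctaose replicate 3 had a similar median intensity (178.1) and the same median deviation over all probe sets (-0.08). It had the highest actin 3'/5' ratio (8.83, against 4.96 to 7.14 on the others) and was the lowest of its group for 40 of the 69 genes. Without it the count of calls was 0 in the mutant response, 3 in the difference of responses (atpI, rpl32 and ndhH) and 1 in the genotype comparison in chitooctaose (rpl14). The 25S ribosomal RNA control read 3625, 6009 and 3304 on the mutant chitooctaose arrays, 1092, 1746 and 2082 on the mutant water arrays, 1000, 2674 and 1424 on the wild type chitooctaose arrays, and 2066, 2094 and 3408 on the wild type water arrays. The part of these quality measures in the results below was not tested, and counts are given without single arrays where they move.

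**Figure D2:**
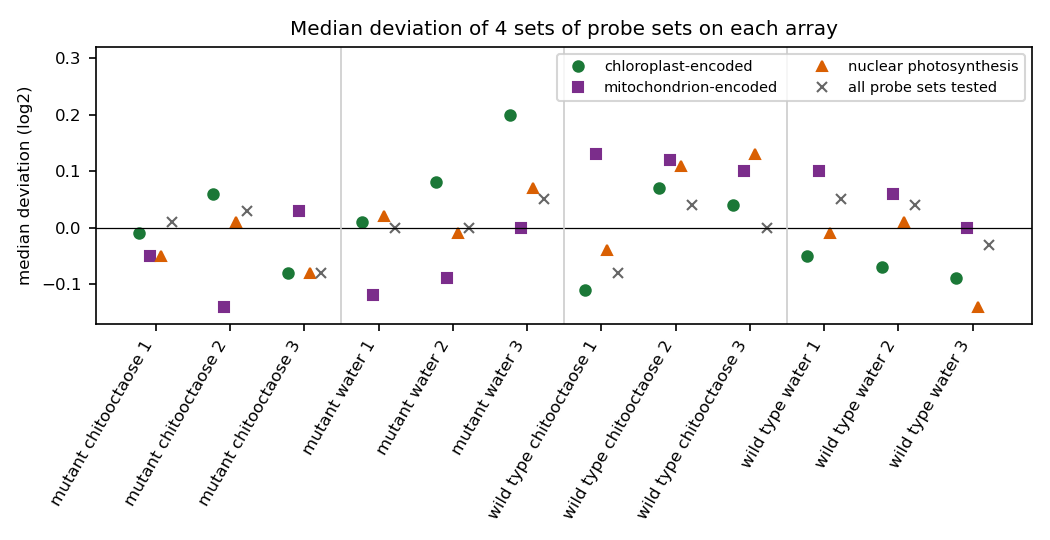
The vertical axis is the median, over a set of probe sets, of the deviation of log2(intensity + 16) from each probe set's mean; the horizontal axis is the array. On mutant water replicate 3 chloroplast-encoded genes lay at 0.20 and mitochondrion-encoded ones at 0.00. Most mitochondrion-encoded probe sets had a mean intensity under 1000.

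Between the genotypes in water, 13 of the 69 chloroplast-encoded genes were called higher in the mutant and 0 lower. That is 18.8% of them called higher, against 4.03% of all probe sets tested, of which 10.3% were called either way and 6.3% lower. The genes came from 8 of the 10 groups. They were the photosystem subunits psaI, psbI and psbL, petG and petD of the cytochrome b6f complex, atpI of ATP synthase, the ribosomal protein genes rpl20, rpl22, rpl32, rps3 and rps15, rpoA of the RNA polymerase, and the photosystem I assembly factor ycf3. The differences were small, up to 1.47-fold. The median over the 69 was 0.17, against 0.00 over all probe sets, and 62 of 69 lay above 0, against 49.5% of all. All 3 mutant arrays were above all 3 wild type arrays for 32 genes and below for 0, where 14.3% and 16.5% of all probe sets separate so.

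The count rested partly on mutant water replicate 3. Without it 3 of the 13 calls remained, those of rps3, rpl32 and rps15, with a median of 0.11 and 60 of 69 genes above 0. Without both arrays that stood apart, a choice made after seeing the data, 10 calls remained. The median and the number of genes above 0 were again 0.11 and 60. Wild type chitooctaose replicate 1 is in neither group compared here, so its removal changed only the shared estimate of the spread. Leaving out wild type water replicate 1, wild type water replicate 2 or mutant water replicate 2 gave 5, 4 and 7 calls. Of the 3'/5' ratios and 25S readings, none separated mutant water from wild type water arrays in 1 direction except the ubiquitin ratio, at 1.51 to 1.61 in the mutant and 1.66 to 1.68 in wild type. Other scalings raised the count, to 27 genes with quantile normalization and 30 with median centring, all higher in the mutant, with all 13 among them each time. Median centring also raised the calls higher in the mutant over all probe sets, from 917 to 1700.

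**Figure D3:**
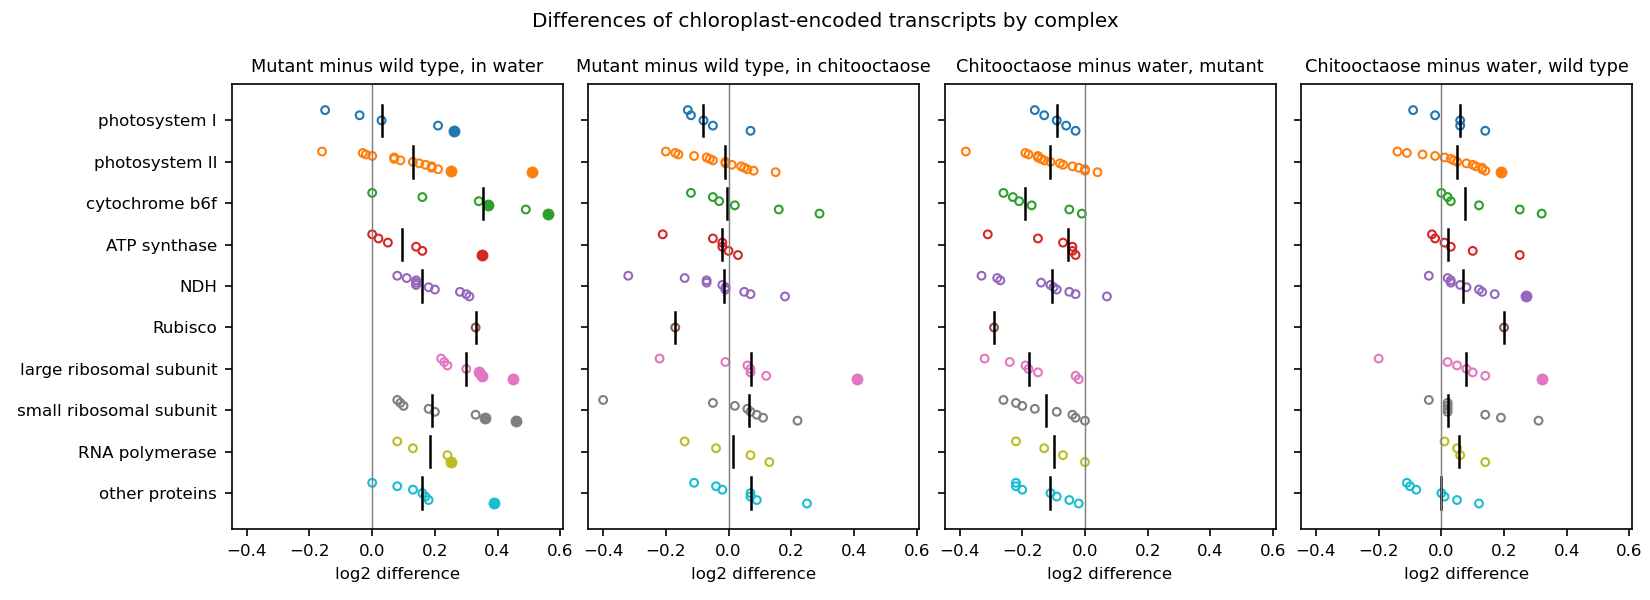
Each point is 1 gene's difference in mean log2(intensity + 16) (horizontal axis) in its complex (rows); filled points passed an adjusted p of 0.05, and bars are medians. In water the mutant minus wild type medians ran from 0.03 for photosystem I to 0.36 for cytochrome b6f, and in chitooctaose from -0.17 for Rubisco to 0.07.

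Small ribosomal subunit genes gave the calls with the lowest adjusted p. The gene rps3, for a small subunit protein, read 5540, 5695 and 5772 in mutant water and 4515, 4361 and 4340 in wild type water. Its groups were separated by far more than their own spread, and the difference was 0.36 ± 0.07 (adjusted p = 0.0013). The other small subunit call, rps15, read 1153, 1120 and 1227 in mutant water and 836.1, 803.8 and 884.2 in wild type water, again with no overlap (0.46 ± 0.10, adjusted p = 0.0049). These 2 kept their calls under every alternative tried for this comparison. The remaining 6 genes of the small subunit did not pass, with differences from 0.08 ± 0.06 for rps2 to 0.33 ± 0.15 for rps16.

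In the large subunit 3 of 7 genes were called, and all 7 lay above 0 (median 0.30, 0.22 to 0.45). For rpl22 the means were 5100 ± 257 in mutant water and 3989 ± 58.0 in wild type water, a difference of 0.35 ± 0.09 (adjusted p = 0.018). For rpl20 they were 3265 ± 344 in mutant water and 2377 ± 125 in wild type water (0.45 ± 0.13, adjusted p = 0.038), the mutant value being raised by replicate 3 at 3661 against 3054 and 3078 on the other mutant arrays. The gene rpl32 was the exception to that array, at 5208, 5316 and 4663 in mutant water against 4339, 4341 and 3366 in wild type water (0.34 ± 0.10, adjusted p = 0.038). Mutant water replicate 3 was there the lowest of its group, and wild type water replicate 3 set the lower end. Of 15 alternatives the call was lost in 7 for rpl20, including each of the 6 fits with 1 array left out, in 5 for rpl22 and in 4 for rpl32.

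The cytochrome b6f complex, which passes electrons from photosystem II to photosystem I, had the largest median of the complexes with more than 1 gene measured (0.36). Its small subunit gene petG read 1399, 1132 and 1564 in mutant water and 874.4, 868.8 and 1000 in wild type water, the largest difference of all 69 (0.56 ± 0.14, adjusted p = 0.013). Its gene petD, for subunit IV, averaged 237.6 ± 16.2 in mutant water and 180.0 ± 18.9 in wild type water (0.37 ± 0.11, adjusted p = 0.036). The arrays did not overlap for 5 of the 6 genes. The exception was petB, for cytochrome b6, at 0.00 ± 0.06, and petN did not pass at 0.49 ± 0.16 (adjusted p = 0.062).

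Of 20 photosystem genes, 3 were called, psbL, psbI and psaI, which encode small subunits. The photosystem II gene psbL read 1986, 2249 and 2180 in mutant water and 1590, 1392 and 1507 in wild type water (0.51 ± 0.13, adjusted p = 0.016), with no overlap. The gene psbI averaged 5579 ± 245 in mutant water and 4682 ± 92.3 in wild type water (0.25 ± 0.06, adjusted p = 0.015), and psaI of photosystem I averaged 8193 ± 589 in mutant water and 6808 ± 153 in wild type water (0.26 ± 0.07, adjusted p = 0.017). The other 17 did not pass. Among them psbA, for the D1 protein, differed by 0.19 ± 0.10 (adjusted p = 0.30), and psaA by -0.15 ± 0.07 (adjusted p = 0.22). For psaA 1 mutant array, replicate 3 at 11296, lay above the lowest wild type array at 11026, so the groups overlapped.

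ATP synthase had 1 call among 6 genes, atpI, for a subunit of the membrane part that carries protons. It read 562.2, 592.0 and 680.6 in mutant water and 463.5, 477.1 and 486.6 in wild type water (0.35 ± 0.09, adjusted p = 0.016). The other ATP synthase genes lay between 0.00 and 0.16, with atpB, for the catalytic beta subunit, at 0.02 ± 0.07 (adjusted p = 0.94).

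NDH, which feeds electrons from stromal donors back into the chain, had no call among its 10 genes in water, though all 10 lay above 0 (median 0.16). The lowest p belonged to ndhH, at 2614 ± 108 in mutant water and 2159 ± 161 in wild type water (0.28 ± 0.09, adjusted p = 0.055), while ndhF, among the dimmest probe sets, differed by 0.30 ± 0.19 (adjusted p = 0.41). The gene rbcL, for the large subunit of the carbon-fixing enzyme Rubisco, read 2932, 2958 and 3703 in mutant water and 2466, 2562 and 2553 in wild type water. Its groups did not overlap but its difference did not pass (0.33 ± 0.17, adjusted p = 0.27).

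Of the 4 RNA polymerase genes rpoA, for the alpha subunit, was called, at 5573 ± 376 in mutant water and 4679 ± 117 in wild type water (0.25 ± 0.06, adjusted p = 0.018). The beta subunit gene rpoB read 432.3, 430.0 and 455.9 in mutant water and 360.1, 368.2 and 382.9 in wild type water, without overlap, and missed the threshold (0.24 ± 0.10, adjusted p = 0.19). Among the 7 other proteins the 1 call was ycf3, at 3294, 3289 and 3726 in mutant water against 2512, 2531 and 2794 in wild type water (0.39 ± 0.10, adjusted p = 0.013). The protease subunit gene clpP lay at 0.00 ± 0.07.

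**Figure D4:**
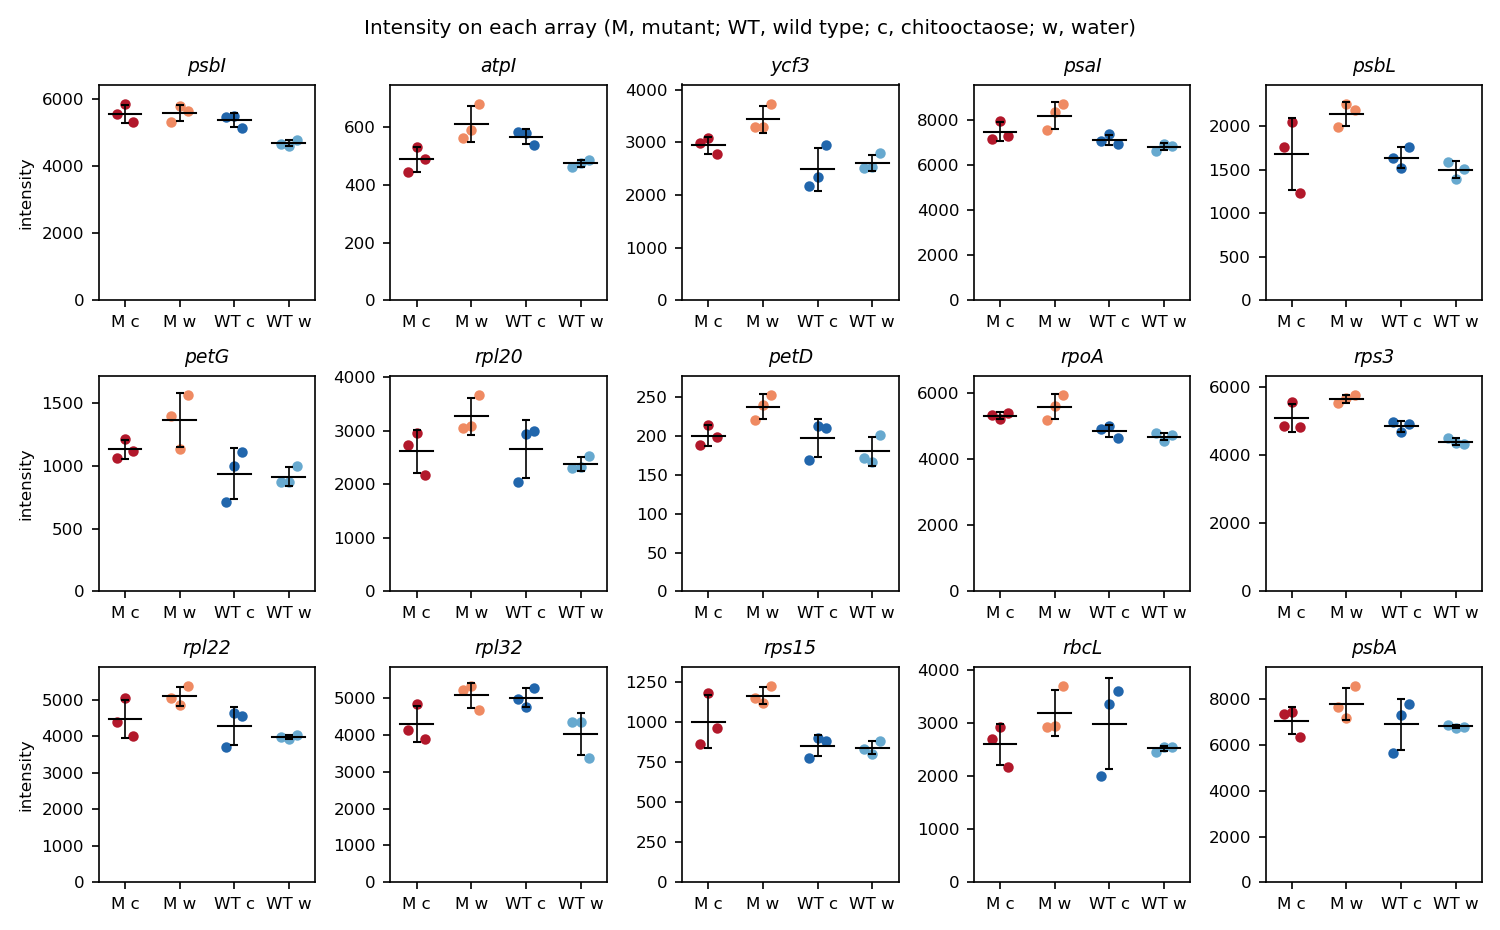
Intensity (vertical axis, from 0) on each of the 12 arrays for the 13 genes higher in mutant water and for rbcL and psbA, with the mean and SD of 3 arrays. All 3 mutant water arrays lie above all 3 wild type water arrays in each panel.

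Measured differences varied among the genes of 1 transcription unit. In the ribosomal protein cluster headed by rpl23, 3 of 7 genes were called and all 7 lay above 0 (median 0.25), from 0.09 for rps19 to 0.36 for rps3. In the cluster of atpI, atpH, atpF, atpA and rps2, atpI lay at 0.35 and the other 4 between 0.05 and 0.16. In the psbB cluster petD lay at 0.37 beside petB at 0.00 and psbB at -0.16. That cluster includes psbN, which is read from the opposite strand. The pair atpB and atpE stayed at 0.02 and 0.00, and the unit of psaA, psaB and rps14 ranged from -0.15 to 0.18. Differences between genes of a unit were not tested. Probe sets of a unit also differed in brightness. Mean intensities over the arrays were 535.9 for atpI and 6215 to 13600 for the other 4 genes of its cluster. They were 203.8 for petD and 14980 for petB. The part of brightness in these contrasts was not tested.

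**Figure D5:**
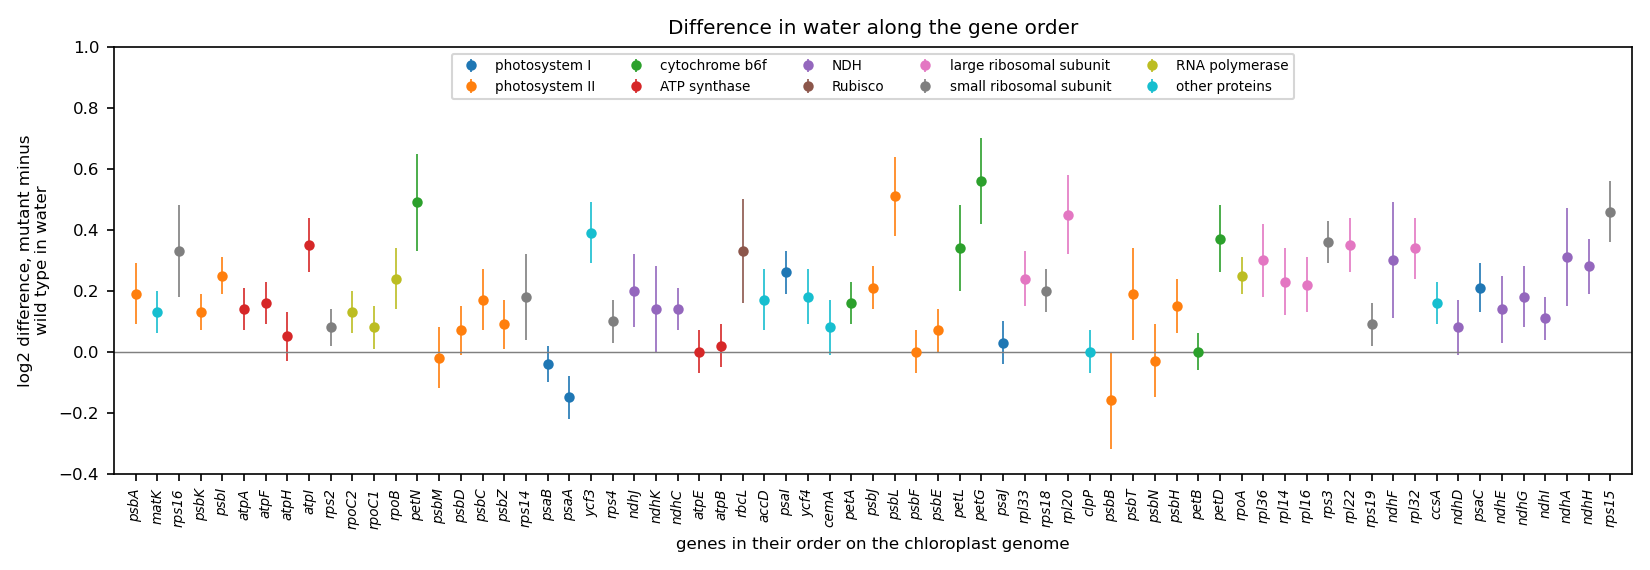
The 69 genes in their order along the chloroplast genome (horizontal axis, not to distance) against the mutant minus wild type difference in water in mean log2(intensity + 16), with standard errors, coloured by complex. The highest values, petG at 0.56 and psbL at 0.51, and the lowest, psbB at -0.16 and psaA at -0.15, come from different positions.

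The size of the difference moved with the brightness of the probe set. Of 9 genes with a mean intensity under 1000, 3 were called and the median difference in water was 0.33. Of 39 between 1000 and 8000, 10 were called with a median of 0.20. Of 21 above 8000, among them atpB and psaA, 0 were called and the median was 0.08, with standard errors of 0.06 to 0.10. The highest intensity of any probe set on an array was 18182 to 21373. The part of brightness in which genes were called was not tested.

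Chitooctaose given to wild type seedlings moved few chloroplast transcripts. Within 30 minutes 3 of 69 genes rose and 0 fell, 4.35% of them, while 18.9% of all probe sets were called (8.82% higher and 10.1% lower). The 3 were rpl32 of the large ribosomal subunit, ndhH of NDH and psbI of photosystem II, by 0.32 ± 0.10 (adjusted p = 0.031), 0.27 ± 0.09 (adjusted p = 0.039) and 0.19 ± 0.06 (adjusted p = 0.040). The median over the 69 was 0.05 against -0.04 over all probe sets, and the range was -0.20 for rpl14 to 0.32 for rpl32. The 95% intervals of the 69 differences all lay within -0.44 to 0.65. The ubiquitin 3'/5' ratio separated these groups, at 1.49 to 1.58 with chitooctaose and 1.66 to 1.68 with water, and its part was not tested.

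For rpl32 the arrays read 4977, 4754 and 5270 with chitooctaose and 4339, 4341 and 3366 with water, without overlap. For ndhH they read 2664, 2487 and 2657 with chitooctaose and 2120, 2021 and 2337 with water, and psbI averaged 5362 ± 208 with chitooctaose and 4682 ± 92.3 with water. This comparison and that of the genotypes in water share the wild type water arrays, so a low reading there enters both. The mutant means of psbI were 5566 with chitooctaose and 5579 with water, and those of ndhH 2572 and 2614. Without wild type water replicate 3 the rpl32 call was lost in both comparisons. Chitooctaose arrays lay above water arrays for 11 genes and below for 0, where 13.1% and 19.8% of all probe sets separate so. Of the standard members of the complexes, psbA (0.01 ± 0.10), psaA (-0.09 ± 0.07), atpB (-0.03 ± 0.07), ndhF (-0.04 ± 0.19), rps2 (0.02 ± 0.06) and rpoB (0.06 ± 0.10) did not pass.

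None of these calls held without wild type chitooctaose replicate 1. Its removal left 1 call, rbcL, and a median of 0.12 with 63 of 69 genes above 0, against 54 with all arrays. With all arrays 43.6% of all probe sets lay above 0. Leaving out any other array of these groups gave 1 or 2 calls. For rbcL that array read 2014, against 3364 and 3613 on the other chitooctaose arrays and 2466, 2562 and 2553 in wild type water. With all arrays rbcL differed by 0.20 ± 0.17 (adjusted p = 0.46), so 1 library decides its value. In the groups without a call the lowest p belonged to atpI (0.25 ± 0.09, adjusted p = 0.063), rps14 (0.31 ± 0.14), petN (0.32 ± 0.16), rpoC2 (0.14 ± 0.07), psaC (0.14 ± 0.08) and the intron maturase gene matK (0.12 ± 0.07).

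In the mutant, chitooctaose gave 0 calls among the 69 in the limma fit, and 1.49% of all probe sets were called (0.721% higher and 0.769% lower). An unadjusted p under 0.05 was found for 12 of the 69, and for 2465 of all 22746 probe sets. The median was -0.11, against -0.03 over all probe sets, and 65 of 69 genes lay below 0, as did 13073 of all 22746 probe sets. The 25S control also separated these groups, at 3304 to 6009 with chitooctaose and 1092 to 2082 with water, and its part in the shift was not tested. Chitooctaose arrays lay below water arrays for 9 genes and above for 0, where 11.4% and 7.06% of all probe sets do so. The largest difference was that of psbL, at 1753, 2043 and 1234 with chitooctaose and 1986, 2249 and 2180 with water (-0.38 ± 0.13, adjusted p = 0.23). The groups overlapped through chitooctaose replicate 2, and without that array psbL was called lower. The lowest adjusted p was that of atpI, at 444.7, 532.6 and 488.7 with chitooctaose and 562.2, 592.0 and 680.6 with water (-0.31 ± 0.09, adjusted p = 0.11).

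Elsewhere in the mutant the lowest p of each group belonged to rpl20 (-0.32 ± 0.13), ndhA (-0.33 ± 0.16), accD for a subunit of acetyl-CoA carboxylase (-0.22 ± 0.10), rpoB (-0.22 ± 0.10), petA for cytochrome f (-0.17 ± 0.07), rps3 (-0.16 ± 0.07), psaI (-0.13 ± 0.07) and rbcL (-0.29 ± 0.17), none of which passed. The genes psbA (-0.14 ± 0.10), psaA (-0.06 ± 0.07), atpB (-0.04 ± 0.07), ndhF (-0.27 ± 0.19) and rps2 (-0.04 ± 0.06) did not pass either. This comparison and that of the genotypes in water share the 3 mutant water arrays, so a high reading there enters both. Leaving out mutant water replicate 3 left the median at -0.06.

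The responses of the genotypes differed for 3 genes, each with a lower response in the mutant (4.35%, against 6.62% of all probe sets called lower and 4.66% higher). For atpI the response was -0.31 in the mutant and 0.25 in wild type, a difference of -0.56 ± 0.13 (adjusted p = 0.0057) that kept its call under all 20 alternatives. For rpl32 the responses were -0.24 in the mutant and 0.32 in wild type (difference -0.57 ± 0.14, adjusted p = 0.013), and for rps3 -0.16 in the mutant and 0.14 in wild type (difference -0.30 ± 0.09, adjusted p = 0.049). The rps3 call was lost under 15 of 20 alternatives. An unadjusted limma p under 0.05 was found for 17 of the 69 genes, and for 5130 of all 22746 probe sets. The median difference of responses was -0.17 against 0.02 over all probe sets. The same quantity can be read as the change in the genotype difference between the 2 treatments. For atpI the mutant minus wild type difference was -0.21 ± 0.09 in chitooctaose and 0.35 ± 0.09 in water, that of rpl32 was -0.22 in chitooctaose and 0.34 in water, and that of rps3 was 0.06 in chitooctaose and 0.36 in water.

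The wild type array that stood apart moved this count most. Without wild type chitooctaose replicate 1, 12 genes were called, all lower in the mutant response, among them rbcL, rpoB, rpl20, petD, accD and psbE. Without both arrays 5 were called, atpI and rpl32 among them, and without mutant chitooctaose replicate 2 alone 5 were called too. In the complexes without a call the lowest p belonged to psbL (-0.50 ± 0.18, adjusted p = 0.097), petL (-0.46 ± 0.19), ndhH (-0.30 ± 0.12), psaC (-0.29 ± 0.12), rpoC2 (-0.27 ± 0.11), accD (-0.28 ± 0.14) and rbcL (-0.49 ± 0.23). The interval of psaA was -0.19 to 0.24 and that of atpB -0.22 to 0.19, and that of ndhF was wider, at -0.80 to 0.33.

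With chitooctaose present the genotypes differed for 1 of 69 genes, where 17.3% of all probe sets were called (7.77% higher and 9.5% lower in the mutant). The 25S control (3304 to 6009 in the mutant and 1000 to 2674 in wild type) and the GAPDH 3'/5' ratio (1.15 to 1.18 in the mutant and 1.24 to 1.4 in wild type) did not overlap between these groups, and their part was not tested. The gene was rpl14 of the large ribosomal subunit, at 3846, 3977 and 3738 in the mutant and 2436, 3042 and 3274 in wild type (0.41 ± 0.11, adjusted p = 0.014). Every mutant array was above every wild type array, and wild type replicate 1 was the lowest. Without that array rpl14 was not called and 5 other genes were lower in the mutant, rps14, ndhK, rbcL, psbE and psbB. The count was 0 without mutant chitooctaose replicate 2, 3 without mutant chitooctaose replicate 1 and 2 without wild type chitooctaose replicate 3. Quantile normalization gave 8 higher and 1 lower, and shifted the split over all probe sets to 3584 higher and 2128 lower, against 1768 and 2161.

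The median difference was -0.01 over the 69 and 0.00 over all probe sets, and 32 genes lay above 0, against 50.2% of all probe sets. The 13 genes called in water were not called here: petG differed by 0.29 ± 0.14 (adjusted p = 0.19), ycf3 by 0.25 ± 0.10 (adjusted p = 0.087), rpoA by 0.13 ± 0.06 (adjusted p = 0.20) and rps15 by 0.22. Other settings called some of those 13 higher in the mutant here. They were ycf3, petG, rpoA and rps15 with quantile normalization, and ycf3 and rps15 with median centring. Leaving out wild type chitooctaose replicate 3 added ycf3, and leaving out mutant chitooctaose replicate 1 added rps15. In the difference of responses, 3 of those 13 passed, as given above. The other 10 are not shown to differ between water and chitooctaose. Lowest p values in the groups without a call belonged to rps14 (-0.40 ± 0.14, adjusted p = 0.055), psbK (0.15 ± 0.06, adjusted p = 0.093), atpI, ndhK (-0.32 ± 0.14), psaA (-0.13 ± 0.07) and rbcL (-0.17 ± 0.17). The genes psbA, atpB, ndhF, rps2 and rpoB lay between -0.04 and 0.07.

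Some nucleus-encoded partners of these complexes and transcripts of the other organelle genome were set beside the values in water. The 14 measured nucleus-encoded photosynthesis genes are the part of longer lists that matched a single-gene probe set by symbol. For photosystem I 19 symbols were listed and 2 probe sets found, for NDH 30 and 3, and for light-harvesting proteins 26 and 3. The median over the 14 was 0.04, and 2 were higher in the mutant in water (14.3%, against 4.03% of all probe sets). These were NdhN of NDH (0.66) and the light-harvesting protein gene LHCB4.3 (0.44). The other 12 did not pass. They ran from -0.32 for ATPC2 to 0.28 for NdhL and PRK, with NdhS at 0.26 and RCA, for Rubisco activase, at 0.01. Of the 14, 11 lay above 0, 8 had an unadjusted p under 0.05, and the mutant arrays were all above the wild type arrays for 6 and all below for 1. Over all 22746 probe sets 49.5% lay above 0, 4901 had such a p, and 14.3% and 16.5% separated so. In the difference of responses 4 of the 14 were lower in the mutant (28.6%, against 6.62% of all probe sets). They were NdhN (-0.93), NdhL (-0.67), LHCB4.3 (-0.61) and the Calvin cycle enzyme gene PRK (-0.54). The median was -0.17, the same as for the chloroplast-encoded genes. In wild type, NdhN (0.76), PRK (0.38) and LHCB4.3 (1.03) were called higher with chitooctaose than with water. They are 21.4% of the 14, against 8.82% of all probe sets. The comparisons of this paragraph all share the wild type water arrays, so a low reading there enters each. NdhN read 773.0, 810.0 and 793.6 in wild type water and 1065 to 1422.5 on the other arrays. Means of LHCB4.3 were 363.1 in wild type water and 502.2 to 765.2 in the other groups. Those of PRK were 6268 and 6860 to 8220.

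The 18 probe sets of 11 mitochondrion-encoded genes had a median of -0.15 in water, with cox1 of cytochrome oxidase higher in the mutant (0.31) and 2 probe sets of nad1, of respiratory complex I, lower (-0.38 and -0.64). That is 5.56% called higher and 11.1% lower, against 4.03% and 6.3% of all probe sets. Most of the 18 were dim. Mean intensities over the arrays ran from 26.1 for nad7 to 234 for a nad1 probe set, except for cox1 (1353) and nad4 (2979). In water nad4 averaged 3124 ± 498 in the mutant and 2728 ± 85.1 in wild type and was not called. The part of brightness in the median was not tested. With chitooctaose 4 were lower in the mutant and 0 higher, with a median of -0.14. That is 22.2% called lower, where 9.5% of all probe sets were lower and 7.77% higher. Probe sets of nad1 disagreed among themselves in water, from -0.64 to 0.33.

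Of 3 measured root markers, 2 moved in some of these comparisons. The root hair expansin genes EXPA7 and EXPA18 were lower in mutant water than in wild type water, with differences of -0.65 and -0.62. EXPA7 read 122.1, 114.7 and 119.7 in mutant water and 200.2, 208.7 and 178.1 in wild type water. In wild type, EXPA7 and EXPA18 were lower with chitooctaose too, with differences of -0.57 and -0.58. These 2 comparisons share the wild type water arrays, so a high reading there enters both. Mean EXPA7 was 195.7 in wild type water and 114.4 to 126.9 in the other groups. Whether the values of EXPA7 and EXPA18 follow root content was not tested. The third, PYK10, a root beta-glucosidase, was at -0.01 in water and -0.05 in the wild type response. In the mutant response all 3 were between -0.05 and 0.00 and none was called. Both leaf and root were represented on every array, RCA reading 13513 to 16002 and PYK10 8831 to 10279. The other 7 of the 10 listed root markers had no single-gene probe set here, and the part of tissue makeup in the chloroplast values was not tested. Of 35 listed nuclear regulators of chloroplast transcription, such as sigma factors, 0 had a probe set named for that gene alone, so they were not analysed here.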

How the data were processed

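RNA of 12 seedling samples was measured on one-colour Affymetrix arrays. Per the labels' protocols, Trizol was used to extract total RNA, of which 8 ug went into biotinylated cRNA. Each probe set has 1 linear intensity per array, as deposited, and the authors' methods of summarising and scaling it are not given in the sources used here. No other column was used. The dose unit "um" is read as micromolar.

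From these, log2(intensity + 16) was taken with no further scaling, 64 control probe sets were left out, and 4 group means were fitted over 22746 probe sets with limma 3.58.1 in R 4.3.3. Variances were moderated by eBayes along a trend with mean intensity, giving 8.33 prior beside 8 residual degrees of freedom. The 5 comparisons were adjusted separately by Benjamini-Hochberg, two-sided. The script was tested on simulated data. Python 3.11.15, pandas 2.3.3 and matplotlib 3.10.9 served for annotation and figures. Names come from the platform annotation and the gene table of assembly TAIR10.1, which gave gene order only. The annotation names 1 gene for 13513 probe sets. The table's 44 chloroplast rRNA and tRNA genes were not analysed here.

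Named are all called members, the lowest p of each complex without a call, and psbA, rbcL, psaA, atpB, ndhF, rps2 and rpoB in each comparison. Members, lists and tests were chosen with earlier results of these data known. Mitochondrion-encoded probe sets were found by gene symbol, a rule set after seeing the annotation because locus tags matched none. Nuclear photosynthesis, root and operon lists are textbook lists. No promoter or protein sequence was searched. Other settings tried changed the scaling (quantile normalization or median centring), the pseudocount (1 or 64), the filter (the dimmest 40% removed) or the fit (a replicate block, constant variance, only the groups compared), or removed each array in turn. Removing both arrays that stood apart was added after seeing the data.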

Additional observations from a re-analysis of the deposited data

Results flagged for a closer look

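The response to chitooctaose differed between the genotypes, by the test of the difference itself in the limma fit, for 3 of 69 chloroplast-encoded genes (4.35%), against 11.3% of all probe sets (6.62% lower and 4.66% higher). The mutant response minus the wild type response was -0.56 for atpI, -0.57 for rpl32 and -0.30 for rps3 on the log2 scale. The rps3 call was lost under 15 of 20 alternatives and that of rpl32 under 1. Mutant chitooctaose arrays lay below mutant water arrays for atpI (444.7 to 532.6 against 562.2 to 680.6), and wild type chitooctaose arrays lay above wild type water arrays (537.9 to 583.1 against 463.5 to 486.6).

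The probe sets that match both copies of a chloroplast gene enter no comparison of the 69 genes. In water 1 of these 8 was called higher in the mutant (12.5%, against 4.03% of all probe sets). The probe set of ycf1, a gene whose product has been assigned to protein import at the inner envelope, was higher in the mutant in water by 0.32 (adjusted p = 0.012, limma). It read 3337, 3423 and 3874 in mutant water and 2848, 2814 and 2819 in wild type water. The other 7 such probe sets, for rps12, rpl2, rpl23, ycf2, ndhB and rps7, lay between 0.06 and 0.17 in that comparison and were not called. The ycf1 call was not checked under the alternative settings.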

How the results depend on the processing

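Medians over the 69 genes moved, before rounding, by less than the spread of array medians within groups (0.0772). With 1 array left out they lay at 0.11 to 0.21 in water, 0.02 to 0.12 in the wild type response, -0.15 to -0.06 in the mutant response, -0.23 to -0.13 in the difference of responses and -0.07 to 0.04 in chitooctaose, where quantile normalization gave 0.07, against -0.01. The spread of 0.0772 includes the arrays that stood apart and is larger than the median of the wild type response itself (0.05). Moving by less than it therefore does not show that a median is stable. Counts of calls moved more than the medians. In water, 13 genes became 27 (quantile normalization), 30 (median centring), 3 (no mean-variance trend) and 23 (only the groups compared), and 3 to 12 with 1 array left out. In the wild type response 3 became 1, 7, 0 and 1 under the same settings, and 1 to 2 with 1 array left out. With no trend, 0 of 69 passed in limma, while 6 had an unadjusted p under 0.05 in the fit with the trend. In that fit 6945 of all 22746 probe sets had such a p. The mutant response had 0 calls, and 0 to 1 with 1 array left out. The difference of responses went from 3 to 10 (median centring), 1 (no trend) and 5 (without both arrays that stood apart), and 2 to 12 with 1 array left out. The genotypes in chitooctaose, with 1 call, gave 9 (quantile), 5 (centring), 2 (without the dimmest 40%) and 7 (without both arrays, 1 higher and 6 lower), and 0 to 5 with 1 array left out. Over all probe sets, the mutant response of 339 calls became 676 (quantile), 672 (centring) and 193 (no trend). The split of higher and lower calls shifted most with another scaling for the difference of responses (1060 higher and 1505 lower, against 2042 and 1666 with quantile normalization), for the genotypes in water (917 and 1434, against 1700 and 1560 with centring) and for the genotypes in chitooctaose (1768 and 2161, against 3584 and 2128 with quantile normalization). Between arrays of the same replicate number the correlations of deviations were -0.13 to 0.22. Arrays of different numbers were not compared, so these values cannot settle whether the number pairs arrays. With the number as a replicate block the calls were 15 in water, 4 in the wild type response, 0 in the mutant response, 2 in the difference of responses and 1 in chitooctaose.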
